A study of Mus musculus with 6 samples.

Results

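The proteasome genes described here were the 46 genes of the raw count table whose symbol began with Psma, Psmb, Psmc, Psmd, Psme, Psmf or Psmg and a number, that had at least 10 counts in every library and that did not carry a pseudogene symbol. They were 46 of 55291 genes listed. They fell into 7 core α genes, 7 constitutive core β genes, 1 inducible core β gene (Psmb10) and 6 cap ATPases. There were also 14 cap genes without ATPase activity, 5 activators and 4 assembly chaperones of the α ring. The 14 include Psmd5, Psmd9 and Psmd10, which are assembly chaperones of the cap's base. Psmf1 (the regulator PI31) and Psmc3ip (a meiotic recombination factor that is not a proteasome subunit) also matched the symbol rule and were kept apart. RNA was taken from WT MEFs, fibroblasts of mouse embryos, after vehicle, after 6 h of 1 μM MASM7 or after 6 h of 20 μM MFI8. Each group had 2 libraries, which the series describes as independent biological replicates. MASM7 activates and MFI8 inhibits mitofusins, the outer membrane proteins that fuse mitochondria. The duration of the vehicle treatment was not given in the sources used here, and all 6 libraries came from wild-type cells with no targeted gene. The study obtained its MEFs from another laboratory. Because MFI8 was used at a higher concentration than MASM7, compound and concentration cannot be told apart.

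The proteasome degrades proteins that carry ubiquitin chains. Its 20S core is a barrel with outer rings of α subunits, which gate the entrance, and inner rings of β subunits, of which Psmb5, Psmb6 and Psmb7 carry the chymotrypsin-like, caspase-like and trypsin-like sites. The 19S cap binds ubiquitin, unfolds substrates with a ring of ATPases and feeds them to the core, whereas the PA28 and PA200 activators open the core without it. Interferon exchanges the catalytic subunits for Psmb8, Psmb9 and Psmb10 in the immunoproteasome. When proteasome activity is limiting, the transcription factor NRF1 (Nfe2l1) raises proteasome gene transcription through antioxidant response elements. In bulk RNA, fewer cells of a type and less RNA per cell cannot be told apart.

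NRF1 and the related NRF2 bind antioxidant response elements, and RefSeq promoters (GRCm38.p6, 250 bases before to 50 after the gene start) were searched on both strands for the core TGACNNNGC. A promoter was given for 39 of the 46 genes, the others being Psmd7, Psmb2, Psmc3, Psmb7, Psmd3, Psmb1 and Psmg2. The core was in 6 of the 39 (15.4%), against 3369 of all 27025 promoters (12.5%). The 6 were Psmb5, Psmb6, Psmd9, Psmd12, Psmc6 and Psme4. The core was in 0 of 7 core α promoters and in 2 of the 4 constitutive core β promoters that were given. Both belong to catalytic subunits and are shown because Psmb5 had the highest fitted value of the 46 genes after MASM7. The other promoters with the core went both ways with MASM7 against vehicle (log2 fold change). Psmb6 (0.10) and Psmd9 (0.060) were on the higher side, and Psmd12 (-0.055), Psmc6 (-0.12) and Psme4 (-0.13) on the lower side. A link between the core and these values was not tested. Capitals mark the core, read 5′ to 3′ along each gene's strand. Distances are from the RefSeq gene start, which differs from the GENCODE start used for the gene positions further on. The Psmb5 stretch lies at chr14:54618024-54618052 on the minus strand, with its core starting 47 bases before the RefSeq start. The Psmb6 stretch lies at chr11:70525338-70525366 on the plus strand, with its core starting 9 bases before the RefSeq start.
Psmb5: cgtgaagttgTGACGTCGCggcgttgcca
Psmb6: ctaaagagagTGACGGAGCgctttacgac
The motif TTCNNNGAA, the GAS element of interferon-γ signalling, was searched in the same way. It was in 2 of the 39 promoters (5.13%), Psmd2 and Psmg1, against 8.47% of all promoters. The promoter of Psmb8, which had too few counts to be among the 46, also held it, 97 bases before the RefSeq gene start. This stretch, on the plus strand at chr17:34198088-34198116, is shown for comparison, since Psmb8 and Psmb9 were near 0 in these libraries.
Psmb8: tcctccgctgTTCCCAGAAgatgcccccc
The interferon-stimulated response element core was in 5 of the 39 promoters (12.8%), Psmd4, Psmd9, Psmb3, Psmg4 and Psme1, against 3.49% of all promoters. A match to these letters is a description of the sequence and not a binding site.

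These fibroblasts expressed every subunit of the standard core, whereas the inducible subunits Psmb8 and Psmb9 were near 0. Levels are compared between genes in TPM, which scales the counts to transcript length and library size. Summed over the 46 genes the level was between 11181 and 11593 TPM in the 6 libraries. The cap scaffold Psmd2 (Rpn1) was highest with a median of 747 TPM over the 6 libraries, followed by the core subunit Psmb4 (611 TPM) and by the ATPase Psmc5 and the outer ring subunit Psma6 (594 TPM each). The ranges of Psmb4, Psmc5 and Psma6 overlapped, so their order was not resolved. The lowest cap gene was the assembly chaperone Psmd9 (32.3 TPM).

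The 14 constitutive core subunits are present in equal copies in the particle, but their mRNA levels were not equal. Their medians ran from 139 TPM for Psma3 to 611 TPM for Psmb4. Within a library the highest was between 3.92 and 4.52 times the lowest. In the order of their levels, 7 of the 13 neighbouring pairs overlapped across libraries. Among the catalytic subunits, Psmb6 (437 TPM) stood above Psmb7 (296 TPM), and Psmb7 above Psmb5 (199 TPM), with no overlap of their ranges. The 6 ATPases ran from 204 TPM for Psmc2 to 594 TPM for Psmc5. The plot of TPM levels shows how little each gene varied, with a highest library at most 1.21 times the lowest for 45 of the 46 genes. The exception was Psme2b at 1.73 times.

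**Figure D1:**
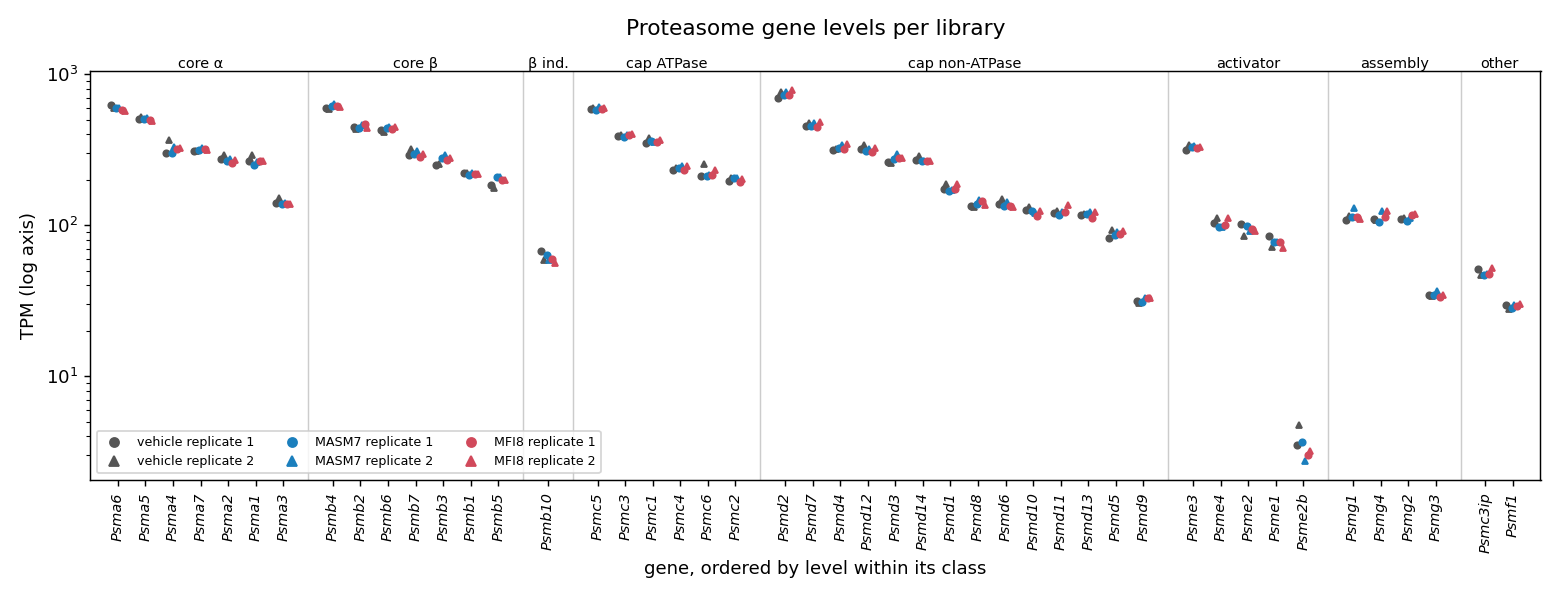
Level of each of the 46 proteasome genes in TPM (log axis) in the 6 libraries, with genes grouped by class and ordered by median level within the class. Circles are replicate 1 and triangles replicate 2 of vehicle (grey), MASM7 (blue) and MFI8 (red). Levels run from 3.35 TPM (Psme2b, median) to 747 TPM (Psmd2, median), and the differences between genes are far larger than those between libraries.

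Of the inducible subunits only Psmb10, which takes the place of Psmb7, was among the 46. Its level was 67.6 and 59.0 TPM with vehicle, 63.2 and 58.9 TPM with MASM7, and 59.9 and 56.2 TPM with MFI8, so the ranges of the groups overlapped on this scale. It stood at 18.5% to 23.1% of the level of Psmb7 in the same library. Psmb8, which replaces Psmb5, had counts of 1 and 0 in the vehicle libraries, 3 and 2 in the MASM7 libraries and 0 and 1 in the MFI8 libraries. Psmb9, which replaces Psmb6, had counts of 2 and 3 for vehicle, 1 and 1 for MASM7, and 0 and 3 for MFI8. In these small counts no difference between groups was detectable. Exons of Psmb9 and of Tap1 on the opposite strand share 212 bases, and the strand setting of the counting is not given in the sources used here. The testis form Psma8 had 0 counts in every library, and the thymus form Psmb11 had 0 counts in all but MASM7 replicate 2, where it had 3. A count of 0 in a library allows up to 3 counts, and these limits cover counting error only.

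The activators were uneven. Psme3, which encodes the nuclear PA28γ, had a median of 332 TPM, whereas the interferon-inducible PA28α and PA28β genes Psme1 and Psme2 had 77.1 and 92.9 TPM and Psme4 (PA200) had 102 TPM. Within a library Psme1 stood at 21.2% to 26.7% and Psme2 at 25.0% to 32.2% of Psme3. Psme2b had only 16 to 28 counts and is 99.4% identical to Psme2 over 794 aligned bases, so its reads may be shared with Psme2 and its values are uncertain. Of the assembly chaperones that build the α ring, Psmg1, Psmg2 and Psmg4 had near equal medians (114, 112 and 112 TPM, with overlapping ranges) and Psmg3 had 34.4 TPM.

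All libraries carried the fibroblast markers, with a summed level of 4012 to 5064 TPM over 8 genes, of which 7 were above 1 TPM in the mean and Thy1 was not. The 5 leukocyte markers summed to 8.91 to 11.9 TPM, nearly all of it from Cd68, with 2 of them at 0 in every library (Adgre1 among them). The 4 epithelial markers summed to 1.03 to 1.69 TPM and the 3 endothelial markers to 0.112 to 0.428 TPM. Library totals were between 22791792 and 30677751 counts.

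The share of all counts that fell on the 46 genes differed more between replicates than between treatments. It was 0.861% and 0.894% in the vehicle libraries, 0.862% and 0.900% in those with MASM7 and 0.856% and 0.884% in those with MFI8. Replicate 2 was above replicate 1 in each group, by 0.0278 to 0.0377 percentage points. The largest and smallest group means (0.881% for MASM7 and 0.870% for MFI8) were 0.0115 percentage points apart. The ranges of the 3 groups overlapped. The fibroblast markers moved the other way, with a lower sum in replicate 2 of each group (4012 against 4967 TPM with vehicle, 4509 against 5064 TPM with MASM7, and 4060 against 4743 TPM with MFI8), and their part in the result was not tested.

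The comparison of MFI8 with vehicle asks what blocking mitofusins did to the transcriptome. No proteasome gene changed past the threshold. Differences were small, between -0.43 (Psme2b) and 0.11 (Psmb5) on the log2 scale, with 17 genes higher, 29 lower and a median log2 fold change of -0.027, beside 0.0027 over all genes tested. Of the core α genes 6 of 7 were lower (median -0.091), all 6 ATPases and all 5 activators were on the lower side (medians -0.032 and -0.048), and 5 of 7 constitutive β genes were on the higher side (median 0.025). With an adjustment for GC content and transcript length the core α median was -0.041 and the constitutive β median 0.072. Without vehicle replicate 2 the medians were -0.057 for the core α genes, 0.00023 for the constitutive β genes, -0.0040 for the ATPases and -0.17 for the activators. Without vehicle replicate 1 they were -0.13 for the core α genes and 0.057 for the constitutive β genes. The ATPase median was -0.015 without MFI8 replicate 1 and -0.054 without MFI8 replicate 2. The 14 other cap genes were split, with 7 higher and 7 lower. Without the base assembly chaperones among them, 5 of 11 were higher and 6 lower (median -0.027). With edgeR (quasi-likelihood test, Benjamini-Hochberg adjustment over 14290 genes), 0 of the 46 passed at an adjusted p of 0.05 (0% of all genes tested), and the smallest adjusted p among them was 0.455. DESeq2 and limma also called 0 of them, with 0 at an unadjusted p under 0.05 (2.86% and 9% of all genes). Of the 8 fibroblast markers 7 were lower, with a median of -0.24 and 0 past the adjusted threshold, and their part in the result was not tested.

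At an unadjusted p under 0.05, 0 proteasome genes were higher (5.21% of all genes tested were) and 2 were lower (4.65% of all), Psma2 and Psmd6. Psma2, an outer ring subunit (chromosome 13, 14613240 to 14674236, GRCm38), had 286 and 300 CPM (counts scaled to library size) with vehicle, 278 and 289 CPM with MASM7, and 262 and 274 CPM with MFI8. Both MFI8 libraries were below all others. Its log2 fold change for MFI8 against vehicle was -0.13 ± 0.053 (standard error, 2 libraries per group; adjusted p 0.471, edgeR). It was at -0.050 with an adjustment for GC content and transcript length (adjusted p 0.820, edgeR).

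Psmd6 (Rpn7 of the cap's lid; chromosome 14, 14112174 to 14120984) had 111 and 117 CPM with vehicle, 107 and 114 CPM with MASM7, and 104 and 102 CPM with MFI8. Again both MFI8 libraries were lowest. Its log2 fold change was -0.14 ± 0.058 (adjusted p 0.455, edgeR). Without vehicle replicate 1 the number of proteasome genes at an unadjusted p under 0.05 was 6 (10.6% of all genes tested were in either direction), and it was 0 without MFI8 replicate 1 and 0 without MFI8 replicate 2 (8.61% and 5.95% of all).

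The libraries of MFI8 and vehicle did not overlap for 6 genes that were higher and 14 that were lower, where 20.9% and 19.3% of all genes tested did so. The shares of the 46 were 13.04% and 30.43%, below and above those of all genes. The 6 were Psmb3, Psmb5, Psmd3, Psmd9, Psmg2 and Psmg4. Of the 14, 5 were core α genes (Psma1, Psma2, Psma3, Psma5 and Psma6). For Psma3 the values were 155 and 166 CPM with vehicle and 149 CPM in both MFI8 libraries (log2 fold change -0.11 ± 0.054). For Psma6 they were 218 and 206 CPM with vehicle, and 200 and 195.2 CPM with MFI8 (-0.10 ± 0.052). Psma7 was highest of the class at 0.0014 ± 0.050, with 273 and 268 CPM both with vehicle and with MFI8.

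Among the catalytic subunits MFI8 gave values of both signs. Psmb5 had 47.6 and 44.6 CPM with vehicle and 49.95 and 49.64 CPM with MFI8 (log2 fold change 0.11 ± 0.064). Psmb7 had 285 and 306 CPM with vehicle and 269 and 283 CPM with MFI8 (-0.10 ± 0.058). Neither gene overlapped between the groups, Psmb5 being higher and Psmb7 lower. The libraries of Psmb6 overlapped, with 226 and 216 CPM with vehicle and 225 and 232 CPM with MFI8 (0.047 ± 0.051). Those of Psmb10 overlapped as well, with 32.8 and 28.3 CPM with vehicle and 28.4 and 26.6 CPM with MFI8 (-0.15 ± 0.091). Psmb10 was at -0.039 without vehicle replicate 1 and at -0.26 without vehicle replicate 2. Psmb7 was at -0.036 with the adjustment for GC content and transcript length and at -0.050 without vehicle replicate 2, where Psmb5 was at 0.066.

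In the cap, Psmd3 (Rpn3 of the lid) was highest at 0.077 ± 0.054, with 371 and 359 CPM with vehicle and 383 and 386 CPM with MFI8. It was at 0.015 with the adjustment for GC content and transcript length. The base assembly chaperone Psmd10 (gankyrin) lay near Psmd6 at -0.13 ± 0.064, while the other base chaperones Psmd5 and Psmd9 were at 0.015 and 0.062. The highest ATPase was Psmc3 (-0.0071 ± 0.049), with 291 and 289 CPM with vehicle and 285 and 292 CPM with MFI8. Psmc6 was the lowest ATPase (-0.096 ± 0.078), with 211 and 251 CPM with vehicle and 207 and 225 CPM with MFI8, so that its vehicle libraries were farther apart than the group means. It was at 0.035 without vehicle replicate 2 and at 0.015 with an adjustment for GC content and transcript length.

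Of the activators, the interferon-inducible Psme1 and Psme2 gave -0.10 ± 0.087 and -0.036 ± 0.090. Psme1 had 53.2 and 44.8 CPM with vehicle and 47.6 and 43.6 CPM with MFI8, and Psme2 had 51.2 and 42.1 CPM with vehicle and 45.9 and 45.0 CPM with MFI8. In both genes the groups overlapped. Psme3 was highest of the activators (-0.022 ± 0.051), with 266 and 282 CPM with vehicle and 268 and 272 CPM with MFI8. Psme2b was lowest (-0.43 ± 0.34), with 0.833 and 1.11 CPM with vehicle and 0.697 and 0.745 CPM with MFI8, and was at -0.20 without vehicle replicate 2.

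Among the α ring chaperones Psmg4 was highest (0.089 ± 0.11), with 17.4 and 16.9 CPM with vehicle and 17.46 and 18.99 CPM with MFI8. Psmg3 was lowest (-0.043 ± 0.077), with 28.5 and 27.5 CPM with vehicle and 26.8 and 27.6 CPM with MFI8. Both differences were smaller than their standard errors. Outside these classes, Psmf1 gave 0.023 ± 0.066, with 53.9 and 50.3 CPM with vehicle, 51.6 and 54.6 CPM with MASM7, and 52.1 and 53.7 CPM with MFI8. Psmc3ip gave 0.0062 ± 0.090, with 26.6 and 23.8 CPM with vehicle, 24.4 and 24.8 CPM with MASM7, and 24.0 and 26.5 CPM with MFI8. The groups overlapped for both genes.

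The comparison of MASM7 with vehicle, which shares the vehicle libraries, asks what activating mitofusins did. In the fit without a replicate block, again no proteasome gene changed past the threshold, and the values were small, between -0.35 (Psme2b) and 0.22 (Psmb5). The 27 genes that were higher and 19 that were lower had a median log2 fold change of 0.0093, beside 0.00067 over all genes tested. All 7 constitutive β genes (median 0.093) and all 4 assembly chaperones (median 0.078) were on the higher side, whereas 5 of 7 core α genes were on the lower side (median -0.047). With edgeR (quasi-likelihood test, Benjamini-Hochberg adjustment), 0 of the 46 passed (0% of all genes tested), and the smallest adjusted p was 0.466. DESeq2 and limma called 0 as well, with 3 and 2 at an unadjusted p under 0.05 (6.52% and 4.35% of the 46, beside 2.64% and 7.93% of all genes). With the replicate number as a block in edgeR, Psmb3 and Psmb5 passed (adjusted p 0.0188 and 0.0329), although no source used here ties libraries of the same number to each other. The median of the 46 turned to -0.012 without MASM7 replicate 2, where 19 genes were higher, to -0.0015 with library size alone and to -0.0074 in limma. Over the alternatives the median of all genes tested ran from -0.015 to 0.0050. The median of the assembly chaperones was -0.0072 without MASM7 replicate 2 and 0.16 without MASM7 replicate 1. That of the core α genes was 0.017 with an adjustment for GC content and transcript length and -0.0013 without vehicle replicate 2.

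At an unadjusted p under 0.05, 3 genes were higher (5.32% of all genes tested were) and 0 were lower (4.88% of all). Psmb5, the chymotrypsin-like subunit and the target of proteasome inhibitors such as bortezomib (chromosome 14, 54614119 to 54618022), had 53.5 and 53.8 CPM with MASM7, against 47.6 and 44.6 CPM with vehicle. Both MASM7 libraries were above the other 4. Its log2 fold change was 0.22 ± 0.063 (adjusted p 0.466, edgeR). The exons of Psmb5 hold the microRNA gene Mir686 on the same strand, over 109 of 899 bases.

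Psmb3, a β subunit without a catalytic site (chromosome 11, 97703399 to 97713500), had 182 and 192 CPM with MASM7, against 164 and 165 CPM with vehicle. It lay at 171 and 177 CPM with MFI8, so the 3 groups were separate. Its log2 fold change for MASM7 was 0.19 ± 0.053 (adjusted p 0.466, edgeR). Psmd3 (chromosome 11, 98682554 to 98695979) had 388 and 421 CPM with MASM7, against 371 and 359 CPM with vehicle, and gave 0.15 ± 0.054 (adjusted p 0.473, edgeR). It was at 0.060 with the adjustment for GC content and transcript length and at 0.090 without MASM7 replicate 2. The count of genes at an unadjusted p under 0.05 was 8 without vehicle replicate 1, 5 without MASM7 replicate 1 and 1 without MASM7 replicate 2, where 12.8%, 9.06% and 3.86% of all genes tested were.

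The other catalytic subunits lay lower. Psmb6 had 226 and 216 CPM with vehicle and 236 and 239 CPM with MASM7, which did not overlap (0.10 ± 0.051). Psmb7 had 288 and 306 CPM with MASM7 and overlapped vehicle (0.0048 ± 0.058). Psmb4 was also separate (0.093 ± 0.049), and Psmb1 was lowest of its class (0.0038 ± 0.049), with 290 and 285 CPM with vehicle and 284 and 292 CPM with MASM7.

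In the α ring Psma1 was lowest (-0.10 ± 0.055), with 223 and 240 CPM with vehicle and 212 and 221 CPM with MASM7. Psma7 was highest (0.057 ± 0.050), with 273 and 268 CPM with vehicle and 275 and 288 CPM with MASM7. With an adjustment for GC content and transcript length Psma1 was at -0.026 and Psma7 at -0.054. Without vehicle replicate 2 Psma1 was at -0.046, and without MASM7 replicate 2 Psma7 was at 0.023. The plot of the core particle genes sets the rings side by side.

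**Figure D2:**
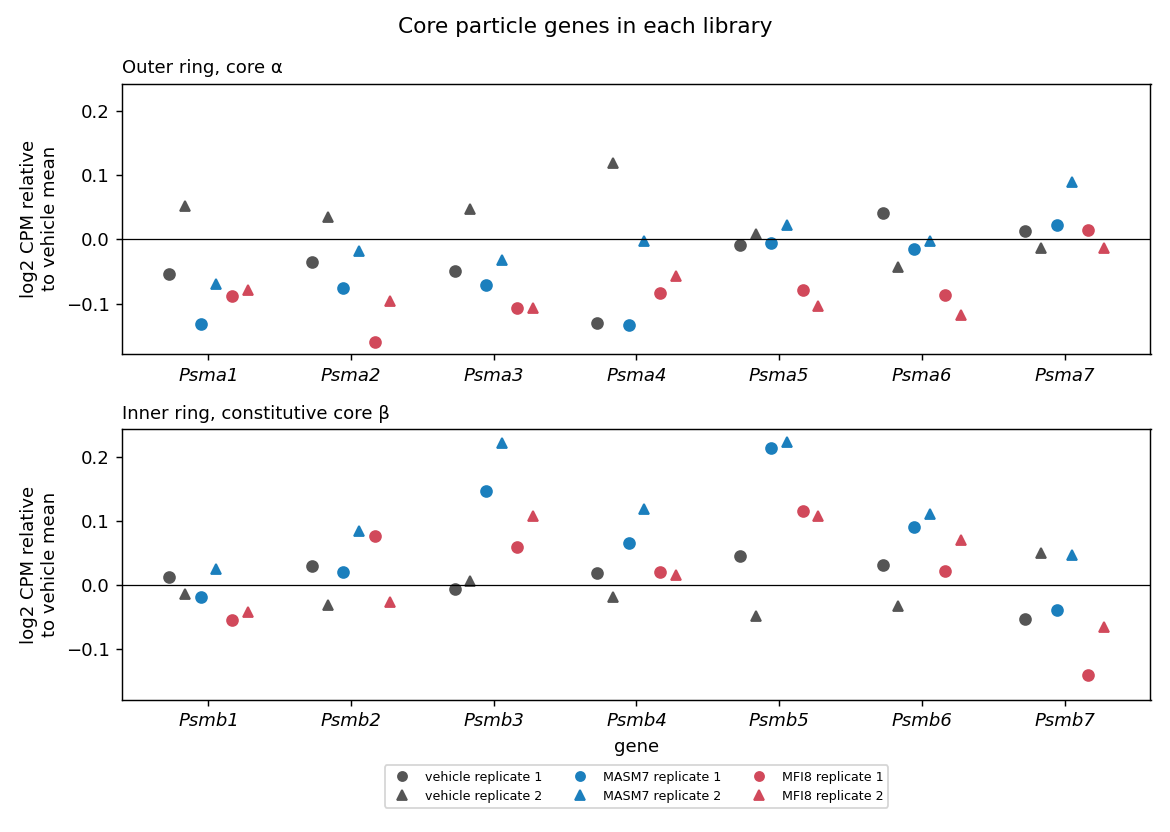
Core particle genes in each of the 6 libraries, as log2 CPM relative to the mean of the vehicle libraries, with the 7 outer ring α genes above and the 7 constitutive inner ring β genes below. Circles are replicate 1 and triangles replicate 2 of vehicle (grey), MASM7 (blue) and MFI8 (red). Both MASM7 points of Psmb3, Psmb4, Psmb5 and Psmb6 lie above all other points of those genes, and the red points of 5 α genes lie below both grey points.

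Over all classes the MASM7 and vehicle libraries did not overlap for 11 genes that were higher and 4 that were lower, where 21.2% and 21.6% of all genes tested did so. The shares of the 46 were 23.9% and 8.70%. The 4 lower ones were Psma1, Psmd1, Psmd10 and Psme4. Psme4 had 246 and 264 CPM with vehicle and 232 and 235 CPM with MASM7 (-0.13 ± 0.061). In the cap, Psmd1, the scaffold Rpn2, was lowest of the genes without ATPase activity (-0.059 ± 0.057), with 357 and 380 CPM with vehicle and 351 and 357 CPM with MASM7, and was at -0.013 without vehicle replicate 2. The lowest ATPase was Psmc6 (-0.12 ± 0.078, but 0.013 without vehicle replicate 2 and 0.00845 with an adjustment for GC content and transcript length), with 211 and 214 CPM with MASM7. These lay within the vehicle range of 211 to 251 CPM. The highest ATPase was Psmc4 (0.059 ± 0.055), with 144 and 146 CPM with vehicle and 148 and 154 CPM with MASM7. It was at 0.0088 with the adjustment for GC content and transcript length.

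Psmb10 gave -0.035 ± 0.090, with 30.8 and 28.8 CPM with MASM7, Psme1 -0.0064 ± 0.087, with 48.6 and 48.8 CPM, and Psme2 0.048 ± 0.090, with 49.7 and 46.6 CPM, and all 3 overlapped vehicle. Psmb10 was at 0.075 without vehicle replicate 1, at -0.14 without vehicle replicate 2 and at -0.13 with the adjustment for GC content and transcript length. The lowest activator was Psme2b (-0.35 ± 0.33), with 0.879 and 0.657 CPM with MASM7, and was at -0.12 without vehicle replicate 2. Of the α ring chaperones Psmg1 was highest (0.14 ± 0.078), with 41.5 and 43.6 CPM with vehicle and 43.6 and 49.9 CPM with MASM7, and Psmg2 lowest (0.0031 ± 0.061), with 54.5 and 54.2 CPM with vehicle and 53.0 and 55.9 CPM with MASM7. Psmg1 was at 0.035 without MASM7 replicate 2.

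**Figure D3:**
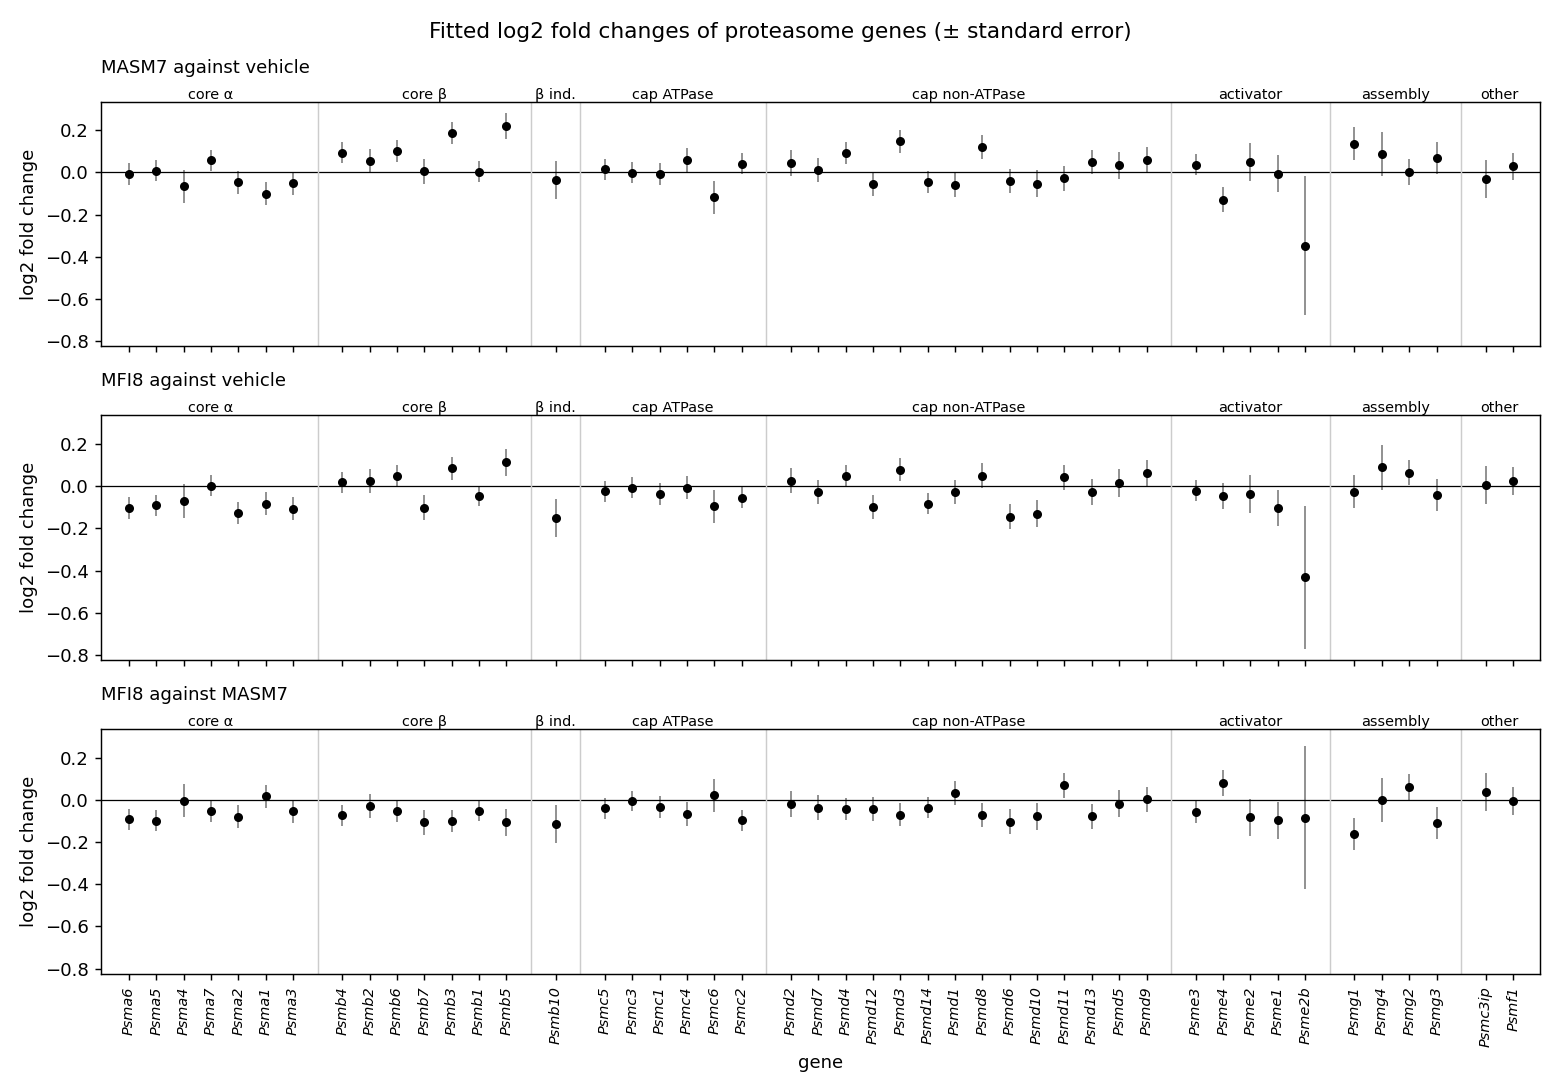
Fitted log2 fold change of each of the 46 proteasome genes with its standard error (bars), for MASM7 against vehicle (top), MFI8 against vehicle (middle) and MFI8 against MASM7 (bottom), with genes grouped by class. The 7 constitutive β genes lie above 0 in the top panel and below 0 in the bottom panel, and both panels use the same MASM7 libraries. In the middle panel 5 of these 7 lie above 0. The fits are those without a replicate block, where 0 of the 46 passed the adjusted threshold in any panel.

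Set side by side, the inhibitor lay below the activator for most proteasome genes. This comparison uses the same MASM7 libraries as that of MASM7 with vehicle. For MFI8 against MASM7, 9 genes were higher and 37 lower, with a median log2 fold change of -0.055, beside -0.0015 over all genes tested. All 7 constitutive β genes were on the lower side (median -0.074), as were 6 of 7 core α genes (median -0.056), 5 of 6 ATPases (-0.036), 11 of 14 other cap genes (-0.040) and 4 of 5 activators (-0.084). The assembly chaperones were split, with 2 higher and 2 lower (median -0.055). Their median was -0.14 without MASM7 replicate 1, 0.020 without MASM7 replicate 2, -0.014 without MFI8 replicate 1 and -0.097 without MFI8 replicate 2. With the adjustment for GC content and transcript length the medians were -0.036 for the constitutive β genes, -0.0040 for the ATPases and -0.053 for the activators. By limma they were -0.031 for the constitutive β genes, -0.012 for the core α genes and -0.028 for the activators. The core α median was -0.088 without MASM7 replicate 1 and -0.036 without MASM7 replicate 2, and that of the activators was -0.036 without MASM7 replicate 1 and -0.046 without MFI8 replicate 1. The constitutive β median was -0.047 without MASM7 replicate 2. With edgeR (quasi-likelihood test, Benjamini-Hochberg adjustment) and no replicate block, 0 of the 46 passed (0% of all genes tested), with a smallest adjusted p of 0.704. With the replicate number as a block, 7 of the 46 (15.2%) were at an unadjusted p under 0.05, beside 15.6% of all genes. With the block and the adjustment for GC content and transcript length, Psmb7 and Psmc2 passed (adjusted p 0.0172 and 0.0190, edgeR), although no source used here ties same-numbered libraries. Without the block none was past an unadjusted p of 0.05 in edgeR, in DESeq2 or in limma on log2(TPM + 1) (0 in each), where 4.23% of all genes tested were higher and 2.95% lower by edgeR. The number of genes that were higher was 19 by limma, 16 without MASM7 replicate 2 and 17 without MFI8 replicate 1. Over the alternatives the median of all genes tested also moved, from -0.0073 to 0.038. The median of the cap genes without ATPase activity was 0.0022 by limma and 0.0027 without MFI8 replicate 1, and that of the ATPases was 0.0074 by limma. The 8 fibroblast markers were also on the lower side, with a median of -0.23 and 0 past the adjusted threshold, and their part in the result was not tested.

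The MFI8 and MASM7 libraries did not overlap for 2 higher genes (Psme4 and Psmg2) and for 23 lower genes, where 19.6% of all genes tested did so in each direction. The shares of the 46 were 4.35% and 50%, and members of 1 complex measured in the same libraries are not independent. Of the 23, 12 belonged to the core: 5 α genes, 6 of the 7 constitutive β genes and Psmb10. Psmg1 had the lowest fitted value (-0.16 ± 0.078), with 42.4 and 41.3 CPM with MFI8 against 43.6 and 49.9 CPM with MASM7. Psmb5 gave -0.11 ± 0.062, Psmb7 -0.11 ± 0.058, Psmb3 -0.10 ± 0.052, Psmb6 -0.055 ± 0.051 and Psmb10 -0.12 ± 0.090. Psmb10 was at -0.068 without MASM7 replicate 1, at -0.069 without MFI8 replicate 2 and at -0.062 with the adjustment for GC content and transcript length. Psme1 and Psme2 gave -0.097 ± 0.086 and -0.084 ± 0.089.

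Single libraries were also set against each other. The median difference of the 46 genes in log2 CPM was 0.015 for vehicle replicate 2 minus replicate 1, 0.056 for MASM7 (41 of 46 higher in replicate 2) and 0.033 for MFI8 (33 of 46). The 4 pairs of an MFI8 and a MASM7 library gave medians of -0.039, -0.082, -0.021 and -0.053, with 35, 43, 26 and 39 genes lower. All 4 had the same sign, and 1 of them, MFI8 replicate 1 minus MASM7 replicate 2 (-0.082), was farther from 0 than the median of any replicate pair. The 4 medians for MFI8 minus vehicle were between -0.043 and -0.0063. Those for MASM7 minus vehicle took both signs, at -0.010 and -0.014 for MASM7 replicate 1 and 0.045 and 0.036 for MASM7 replicate 2. An exact permutation test of 2 libraries against 2 cannot give a two-sided p below 0.333.

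**Figure D4:**
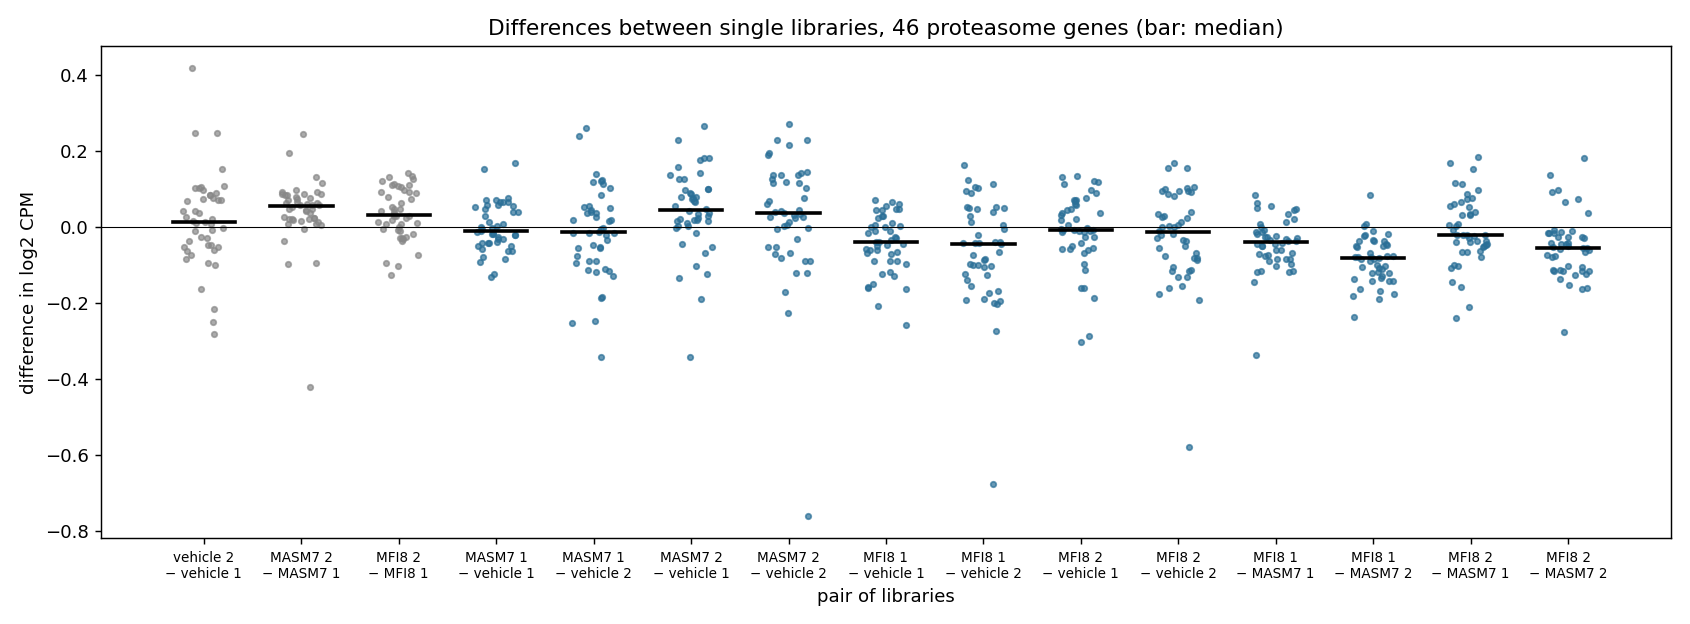
Difference in log2 CPM between pairs of single libraries for the 46 proteasome genes (points), with the median as a bar. Grey points compare replicates of 1 group, and blue points compare each library of a group with each library of another. Replicate medians run from 0.015 to 0.056, and the 4 medians for MFI8 minus MASM7 run from -0.082 to -0.021.

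The genes that act around the proteasome were also counted. Of 13 genes for proteins that bind the proteasome or carry substrates to it, 0 passed the adjusted test in any comparison, nor did any of the 11 genes around NRF1 activation, 6 ubiquitin and E1 genes or 10 class I presentation genes (0 in each). Pomp, the chaperone that matures the core, was the tested gene of the remaining assembly factors and gave -0.051 ± 0.050 with MFI8 and 0.014 ± 0.050 with MASM7.

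The lowest p-values in these lists were around NRF1, where 2 of 11 genes were higher and 1 lower at an unadjusted p under 0.05 with MFI8 (5.21% and 4.65% of all genes tested were). Nfe2l2, which encodes NRF2, had 104 and 92.8 CPM with vehicle, 92.3 and 85.9 CPM with MASM7, and 78.6 and 75.5 CPM with MFI8. Each MFI8 library was below all others, and the log2 fold change was -0.35 ± 0.069 (unadjusted p 0.000508, adjusted p 0.202, edgeR's quasi-likelihood test). Mafg, a small MAF partner of NRF1 and NRF2, had 144 and 138 CPM with vehicle, 152 and 148 CPM with MASM7, and 167 and 176 CPM with MFI8. It gave 0.28 ± 0.054 with MFI8 (adjusted p 0.189, edgeR) and its relative Maff gave 0.46 ± 0.11 (adjusted p 0.304, edgeR), with 29.0 and 30.1 CPM with vehicle, 31.1 and 32.1 CPM with MASM7, and 35.3 and 45.6 CPM with MFI8. For both genes the MFI8 libraries were above all others. Nfe2l1 itself had 238 and 234 CPM with vehicle, 243 and 245 CPM with MASM7, and 246 and 264 CPM with MFI8, with log2 fold changes of 0.11 ± 0.053 for MFI8 and 0.049 ± 0.053 for MASM7. With MASM7, Syvn1, the ER ubiquitin ligase that acts on NRF1, was the 1 gene of the 11 at an unadjusted p under 0.05, where 5.32% of all genes tested were higher and 4.88% lower. It gave 0.21 ± 0.076 (adjusted p 0.473, edgeR), with 73.3 and 63.2 CPM with vehicle and 76.0 and 82.0 CPM with MASM7. Between the compounds 3 of the 11 had higher values with MFI8 at an unadjusted p under 0.05 (4.23% of all genes tested did) and 1 a lower value (2.95% of all). They were Mafg (0.19 ± 0.054), Maff (0.36 ± 0.11) and Ngly1 (0.28 ± 0.12), which removes sugars from NRF1, and on the lower side Nfe2l2 (-0.21 ± 0.069). Their adjusted p values were 0.522 to 0.654 in edgeR, so none passed.

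Among the proteins that bind the proteasome, the ubiquitin receptor Adrm1 had 103 and 98.0 CPM with vehicle, 109 and 116 CPM with MASM7, and 109 and 107 CPM with MFI8. Its log2 fold change was 0.16 ± 0.057 with MASM7 and 0.11 ± 0.057 with MFI8, and the shuttle factor Ubqln4 gave 0.13 ± 0.048 with MASM7, with 223 and 226 CPM with vehicle, 242 and 248 CPM with MASM7, and 229 and 230 CPM with MFI8. For Ubqln4 the 3 groups were separate. Of the 13 genes 2 were higher and 0 lower at an unadjusted p under 0.05 with MASM7 (5.32% and 4.88% of all genes tested were), and 0 either way with MFI8 (5.21% and 4.65% of all), whose lowest p-values were those of Txnl1, Uchl5 and Adrm1. Txnl1, a thioredoxin-like protein of the cap, had 267 and 271 CPM with vehicle, 259 and 250 CPM with MASM7, and 250 CPM in both MFI8 libraries (-0.10 ± 0.049 with MFI8 and -0.078 ± 0.049 with MASM7). The deubiquitinase Uchl5 had 54.3 and 58.1 CPM with vehicle and 49.6 and 52.7 CPM with MFI8 (-0.13 ± 0.066). Between the compounds 1 of the 13, the shuttle factor Rad23b, was lower with MFI8 at an unadjusted p under 0.05 (2.95% of all genes tested were), with 656 and 651 CPM with MASM7 and 587 and 613 CPM with MFI8 (-0.12 ± 0.048). Ubqln4 (-0.091 ± 0.048) and Ecpas (0.11 ± 0.061) followed, the latter with 256 and 253 CPM with MASM7 and 267 and 285 CPM with MFI8.

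Of the ubiquitin and E1 genes, the polyubiquitin gene Ubb gave 0.17 ± 0.072 with MFI8, with 186 and 210 CPM with vehicle and 213 and 233 CPM with MFI8. With MASM7 the E1 gene Uba6 gave -0.15 ± 0.055, with 105 and 111 CPM with vehicle and 97.1 and 97.6 CPM with MASM7. Both were at an unadjusted p under 0.05, where 5.21% of all genes tested were higher with MFI8 and 4.88% lower with MASM7. Between the compounds 0 genes of the list were, where 4.23% of all genes tested were higher and 2.95% lower. Rps27a gave -0.085 ± 0.050 and Uba6 0.088 ± 0.054.

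Of the class I genes Tap1, which moves proteasome products into the ER, had 1.40 and 1.51 CPM with vehicle, 1.56 and 1.61 CPM with MASM7, and 2.35 and 2.17 CPM with MFI8, a log2 fold change of 0.63 ± 0.23 (adjusted p 0.428, edgeR). Both MFI8 libraries were above the other 4, and Tap1 also differed between the compounds at an unadjusted p under 0.05 (0.51 ± 0.22). It was the 1 gene of the 10 to do so in either comparison, where 5.21% of all genes tested were higher with MFI8 than with vehicle and 4.23% higher than with MASM7. Irf1, a transcription factor of the interferon response, had 50.8 and 45.7 CPM with vehicle, 47.2 and 39.5 CPM with MASM7, and 44.8 and 39.3 CPM with MFI8 (-0.20 ± 0.10 with MFI8). The peptide trimmer Erap1 had 38.5 and 37.9 CPM with vehicle, 36.8 and 32.5 CPM with MASM7, and 36.5 and 31.1 CPM with MFI8 (-0.18 ± 0.094 with MFI8). In both genes the MASM7 and MFI8 libraries overlapped. With MASM7 0 of the 10 were past an unadjusted p of 0.05 (5.32% of all genes tested were higher and 4.88% lower), and the lowest p-value was that of the class I heavy chain gene H2-D1 (0.14 ± 0.067), with 49.94 and 45.99 CPM with vehicle and 54.1 and 51.9 CPM with MASM7. Between the compounds H2-K1 gave 0.21 ± 0.15 and Nlrc5, which had under 1 CPM in every library, -0.66 ± 0.55.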

How the data were processed

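RNA-seq libraries (poly(A), 3 groups of 2) were made from WT MEFs. The authors used Trimmomatic for trimming, STAR for alignment to GRCm38 and featureCounts for counting, and deposited raw counts per gene. TPM values, also deposited, were used for levels between genes. The annotation release, strand setting and treatment of reads with several matches are not given in the sources used here. Group membership came from the labels, and doses and times from the study's text.

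Counts were fitted in edgeR 4.0.16 (R 4.3.3) with TMM normalization, filterByExpr, 1 coefficient per group and all 6 libraries. The quasi-likelihood F test was adjusted by Benjamini-Hochberg over 14290 genes. Standard errors were taken as the absolute log2 fold change over the root of the F statistic. CPM used TMM factors. The lists and the 46 genes were chosen with earlier results of these data known. Library values are given for genes at an unadjusted p under 0.05, the highest and lowest of each class by fold change, the catalytic and PA28 genes and, of each other list, the 3 lowest p-values, except for 1 gene that is not reported here. Psma3, Psma6, Psmb4, Psmd10, Psme4 and others without library values were named after their values were seen. Alternatives were DESeq2 1.42.0, limma 3.58.1 on log2(TPM + 1), other normalizations and filters, GC content and transcript length offsets (GENCODE vM21), the replicate number as a block, and each library left out. The test was checked on simulated data. Gene positions came from GENCODE vM21 (GRCm38). P-values measure the spread between these libraries.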

Additional observations from a re-analysis of the deposited data

How the results depend on the processing

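No proteasome gene passed the adjusted test in edgeR under other size factors, library size alone, other filters, only the groups compared, GC content and transcript length offsets, or with any 1 library left out, nor in DESeq2 or limma (0 in each). The replicate numbers are shared by the groups, but no source ties them to a pair. The deviations of same-numbered libraries correlated at 0.152 to 0.188 over all genes tested, at 0.508 to 0.621 over the 7145 more highly expressed genes, and at -0.142 (vehicle and MASM7), 0.0305 and 0.457 over the 46 genes. With the replicate block in edgeR 2 genes passed for MASM7 against vehicle. They were Psmb3 (adjusted p 0.0188, log2 fold change 0.18) and Psmb5 (adjusted p 0.0329, 0.22). With the block and those offsets together 2 passed for MASM7 (Psmb3, 0.18, and Psmc2, 0.13) and 2 for MFI8 against MASM7 (Psmb7 and Psmc2, each -0.13). In the fit without block or offsets Psmc2 was at 0.042 for MASM7 and at -0.096 for MFI8 against MASM7, and Psmb7 was at -0.11 for the latter. In the order MFI8 against vehicle, MASM7 against vehicle and MFI8 against MASM7, the replicate block gave 9, 11 and 7 of the 46 (19.6%, 23.9% and 15.2%) at an unadjusted p under 0.05, beside 18.6%, 19.9% and 15.6% of all genes, and 720, 554 and 439 of all genes at an adjusted p under 0.05, and with the offsets added 8, 8 and 9 of the 46 (17.4%, 17.4% and 19.6%), beside 17.1%, 13.8% and 17.9% of all genes, and 595, 152 and 675 of all genes.

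All genes past the adjusted threshold, 0 in edgeR, numbered 256, 127 and 168 with no filter, 49, 2 and 27 in DESeq2, and 8, 14 and 13 in limma. With only the groups compared there were 1 for MASM7 and 2 for MFI8 against MASM7. With 1 library left out they were 0 to 26, 0 to 2 and 0 to 24. At an unadjusted p under 0.05 the 46 genes gave, for MFI8 against vehicle, 0 in DESeq2 (2.86% of all genes), 0 in limma (9%), and 1 with library size alone (9.87%) or the offsets (7.38%). They gave 5 with no filter for MASM7 (7.93%), and 2 with no filter (5.95%) and 3 with the offsets (7.61%) for MFI8 against MASM7. With 1 library left out these counts were 0 to 6, 1 to 8 and 0 to 1, beside 5.95% to 10.6%, 3.86% to 12.8% and 4.2% to 7.8% of all genes. For the 46 genes the median fold change (log2) in limma was -0.00080 for MFI8 against vehicle, beside 0.025 for all genes. For MFI8 against MASM7 it was -0.012 in limma, and the median of all genes ran from -0.0073 to 0.038 over the alternatives. With 1 library left out the median of the 46 lay between -0.054 and -0.00773, between -0.012 and 0.043, and between -0.069 and -0.029. Psmc6 turned to 0.015 for MFI8 with the offsets, with or without the block, and to 0.00845 and 0.00910 for MASM7, and ran from -0.21 to 0.035 for MFI8 and from -0.24 to 0.013 for MASM7 with 1 library left out, the ends being those without vehicle replicate 1 and without vehicle replicate 2. Psma7 turned to -0.054 for MASM7 with the offsets, with or without the block. The cause of these shifts was not tested. With 2 libraries per group the median standard error of the 46 genes was 0.058 for MFI8 against vehicle, and that of Psmc6 was 0.078.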

Other observations

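Of 55 symbols that match the naming pattern, 5 are pseudogene symbols and were left out. Psma5-ps had 15 to 28 counts in each library and Psmb5-ps 1 to 9. Psmb6-ps, Psmb6-ps2 and Psmb7-ps2 had 0 to 9 counts in each.
The transcripts of the 46 proteasome genes were shorter than those of all genes tested, with a median of 1705 against 3067 bases, at a similar GC content (49.7% against 49.5%). Exons of several proteasome genes overlap those of genes on the opposite strand, among them Psmb7 with Nek6 (405 bases), Psmd13 with Sirt3 (342 bases) and Psmc3 with Slc39a13 (215 bases), so that their reads could not be told apart if strand was not used in the counting.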
